A study of Mus musculus with 2 samples.

Results

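The gene rows described here are 10 segments of the γ and δ chains of the T cell receptor, Trdc, Trdv4, Trdv1, Tcrg-C1, Tcrg-C2, Tcrg-C4, Tcrg-V1, Tcrg-V4, Tcrg-V6 and Tcrg-V7, out of 32285 gene rows in each matrix. They were chosen by name from a list that holds the δ constant gene, the 3 γ constant genes and 6 variable segments, and all 10 were present in both matrices. A γδ T cell joins a variable segment to a joining segment upstream of a constant gene, once for its γ and once for its δ chain, and the pair of chains is its antigen receptor. In the mouse, γδ T cells that use Vγ6 with the product of Trdv4 (the chain widely called Vδ1) arise in the fetal thymus and make interleukin-17, and Vγ7 cells are residents of the gut epithelium that depend on butyrophilin-like molecules there. Vγ1 and Vγ4 cells circulate more widely, and Vγ4 cells include a further interleukin-17 lineage.

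The cells bear the label γδ T lymphocytes and come from C57BL/6J mice, 18 to 20 weeks old, and their RNA was read at transcript 3′ ends in single droplets. The study had 1 library from colon tumor (TIL) and 1 from normal colon tissue (IEL). Both came from minced, digested tissue passed over a Percoll gradient, no sort or gate is named, and the protocol text speaks of tumor tissue for both. How many mice were pooled and how the tumors arose are not given in the sources used here. With 1 library per group no test across samples was possible, library and tissue cannot be told apart, and every interval in brackets is a 95% interval that covers counting error only.

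T cells, taken as droplets with at least 2 UMIs (unique molecular identifiers, counted molecules) of Cd3e, Cd3d and Cd3g together and under 1% of UMIs from myeloid or epithelial markers, numbered 12153 in TIL and 9100 in IEL. They were 98.0% and 99.7% of the cells that passed the filters, with medians of 6470 UMIs in TIL and 6864 UMIs in IEL cells. A Trdc UMI was found in 98.9% of TIL and 96.9% of IEL T cells. The TIL library also held 167 myeloid-like droplets, which should lack receptor segments and served as the background from free RNA. The IEL library held 0, so it has no background of its own. At full depth 60.5% of the myeloid-like droplets had a Trdc UMI, with a median of 7932 UMIs a droplet, and the IEL T cells' 817 CPM (UMIs per 1000000 UMIs) of Trdc lay below the 857 CPM of these droplets. These droplets are of the TIL library and cannot give the free RNA level of the IEL library. For want of such a level, the γδ label of the IEL cells was not settled by Trdc alone. T cell RNA was uneven among the myeloid-like droplets: Trdc was at 857 CPM over all 167 and at 89.6 CPM over the 98 of them with at most 1 Cd3 UMI. The second set was picked for low T cell RNA, so its values are also given for some segments below. Where only the myeloid-like droplets are named, all 167 are meant. Free red cell RNA was also uneven, with 4 haemoglobin genes summing to 2141 CPM in TIL T cells and 0.189 CPM in IEL T cells, and 33 barcodes occurred in both libraries. All 15 myeloid markers had UMIs in TIL T cells (78.3 CPM in all) and 9 of 15 in IEL T cells (9.28 CPM), where S100a8, S100a9, Il1b, C1qc, Csf3r and Adgre1 were at 0. Their part in the results was not tested.

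The letters of the segments bear on what their counts can show. The last 90 coding bases of the 3 γ constant genes are given first, as the coding part nearest the transcript 3′ end. They are not that end itself: the printed Tcrg-C1 bases stop at position 19216615 and the annotated gene runs to 19217024. The counted 3′ reads may therefore lie beyond them. Capitals mark each base unlike Tcrg-C1. The sequences are those of GENCODE vM21 on GRCm38.
Tcrg-C1: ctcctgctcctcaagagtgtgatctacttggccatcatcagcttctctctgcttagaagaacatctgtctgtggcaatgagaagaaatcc
Tcrg-C2: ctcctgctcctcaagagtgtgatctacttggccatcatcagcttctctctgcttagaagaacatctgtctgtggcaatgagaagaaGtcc
Tcrg-C4: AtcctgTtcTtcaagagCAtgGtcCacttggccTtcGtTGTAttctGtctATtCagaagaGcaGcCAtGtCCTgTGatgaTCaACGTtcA
Over these 90 bases Tcrg-C2 differed from Tcrg-C1 at 1 base and Tcrg-C4 at 34. Of all words of 31 bases in the Tcrg-C1 transcript, 51.0% also occurred in Tcrg-C2 or Tcrg-C3, as did 45.9% of those in Tcrg-C2 (with Tcrg-C1 or Tcrg-C3) and 0% of those in Tcrg-C4. Reads that fall in the shared stretches cannot be placed in 1 gene, so the levels of Tcrg-C1 and Tcrg-C2 are uncertain in a way that those of Tcrg-C4 and Trdc are not.

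The variable segments lie at the other end of the transcript, far from the counted 3′ end, and apart from Trdv4 their rows hold few UMIs. The last 60 bases of each germline segment are shown because they run into the joint with the next segment, the part that differs most between receptors. Capitals mark the last cysteine codon TGT in frame, at which the variable joint begins.
Tcrg-V7: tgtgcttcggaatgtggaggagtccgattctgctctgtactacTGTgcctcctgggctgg
Tcrg-V4: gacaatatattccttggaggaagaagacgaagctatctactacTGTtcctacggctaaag
Tcrg-V6: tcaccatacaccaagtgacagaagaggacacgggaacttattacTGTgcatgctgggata
Tcrg-V1: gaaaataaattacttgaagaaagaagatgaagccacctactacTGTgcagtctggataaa
Trdv1: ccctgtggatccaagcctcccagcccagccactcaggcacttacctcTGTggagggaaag
Trdv4: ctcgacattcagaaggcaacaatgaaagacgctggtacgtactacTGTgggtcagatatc
Tcrg-V4, Tcrg-V6, Tcrg-V7, Trdv1 and Trdv4 shared 0 words of 31 bases with any other listed segment. Tcrg-V1 shared 44.2% of its words with Trgv2 or Tcrg-V3, so its counts may be split with those rows.

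On GRCm38 the γ genes lie on chromosome 13 and the δ genes on chromosome 14. Tcrg-V7 (chr13:19178024-19178492), Tcrg-V4 (chr13:19184974-19185506) and Tcrg-V6 (chr13:19190356-19190929) precede Tcrg-C1 (chr13:19214103-19217024), all on the plus strand. Tcrg-C2 (chr13:19304649-19307551) lies on the minus strand, as does its variable segment Trgv2. Tcrg-V1 (chr13:19339989-19340454) lies next to Tcrg-C4 (chr13:19344558-19352756), both on the plus strand. Trdv1 (chr14:53881612-53882217), Trdv4 (chr14:54074905-54075515) and Trdc (chr14:54142851-54148868) follow one another on the plus strand. Each of the 6 variable segments among the 10 has 2 annotated exons, and the UMIs are counts over whole genes and are not split by exon.

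The first comparison asked how tumor and normal colon T cells differed in the level of each segment. Trdc, Tcrg-C1 and Trdv4 were higher in TIL T cells, Trdv4 by far the most, and no segment reached the call in the other direction. A call required 3 things: 20 CPM or more in one of the libraries, levels that differed 2-fold or more, and an interval without 1. Of the 10 segments 5 reached 20 CPM, 3 of these were called higher in TIL and 0 higher in IEL. Trdv4 reached 20 CPM only in TIL, so it could be called in no other direction and its call is no separate support. Of all 6322 genes at that level, 10.9% were called higher in TIL and 13.6% higher in IEL T cells, with a median log2 ratio of -0.10.

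Among the constant genes, Trdc, the constant part of every δ chain, was at 3879 CPM in TIL T cells and 817 CPM in IEL T cells, a log2 ratio of 2.25 (2.23 to 2.26). Tcrg-C1, the constant gene of the Vγ7, Vγ4 and Vγ6 segments, was at 730 CPM in TIL T cells and 301 CPM in IEL T cells, a log2 ratio of 1.28 (1.26 to 1.30). The ratio of Tcrg-C1 was 0.92, below the call, when the level of the 167 TIL myeloid-like droplets was subtracted. That level was 162 CPM, against 19.1 CPM in the 98 with at most 1 Cd3 UMI, whose level alone was not subtracted. Tcrg-C2 was at 137 CPM in TIL T cells and 223 CPM in IEL T cells (log2 -0.70), and Tcrg-C4 at 146 CPM in TIL T cells and 205 CPM in IEL T cells (log2 -0.49). Both were within 2-fold, and for Tcrg-C2 subtracting the level of the 167 droplets gave -1.04. Tcrg-C2 was at 28.7 CPM in the 167 droplets and had 0 UMIs in the 98. Tcrg-C1 and Tcrg-C2 thus lay on opposite sides of equality, while Tcrg-C3, the remaining γ constant gene, had 40 UMIs in all TIL and 33 in all IEL T cells.

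Among the variable segments, Trdv4 was at 250 CPM in TIL T cells and 4.84 CPM in IEL T cells, a log2 ratio of 5.69 (5.53 to 5.85), from 22838 UMIs in TIL and 332 in IEL. Tcrg-V6, the γ segment that Vδ1 cells use, was at 11.3 CPM in TIL T cells and 0.189 CPM in IEL T cells, a log2 ratio of 5.90 (5.12 to 6.81), from 1031 UMIs in TIL and 13 in IEL. It stayed under 20 CPM in both libraries and was therefore not called. The other 4 variable segments of the 10 stood the other way round, all under 20 CPM. Tcrg-V7, the segment of gut epithelial γδ T cells, was at 1.17 CPM in TIL T cells and 5.76 CPM in IEL T cells (log2 -2.30, -2.62 to -1.99). Tcrg-V4 was at 2.37 CPM in TIL T cells and 6.50 CPM in IEL T cells (log2 -1.45), and Tcrg-V1 at 3.57 CPM in TIL T cells and 9.46 CPM in IEL T cells (log2 -1.41). Trdv1 had 51 UMIs in TIL and 114 in IEL T cells, a log2 ratio of -1.57 (-2.08 to -1.09). With the minimum lowered to 5 CPM, Tcrg-V6 was called higher in TIL, and Tcrg-V7, Tcrg-V4 and Tcrg-V1 higher in IEL T cells. Each passed 5 CPM only in the library where it was higher, so the direction of its call was fixed and the call is no separate support. Over all genes, 1060 were called higher in TIL and 1659 higher in IEL at that minimum, and their share of the genes measured was not taken.

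Of the other 26 receptor segment rows, only Trgv2, the variable segment next to Tcrg-C2, reached 20 CPM, with 26.6 CPM in TIL T cells and 40.5 CPM in IEL T cells (log2 -0.61). Tcrg-V5 had 167 UMIs in TIL and 31 in IEL T cells (log2 2.02). Trdv2-2 had 83 UMIs in TIL and 459 in IEL (log2 -2.88), and Trdv5 had 90 in TIL and 368 in IEL (log2 -2.44). Trdv5 lies on the strand opposite to Trdc and overlaps its end, and the counting of strand is not given in the sources used here. The rows of the D and J segments, Trdd1, Trdd2, Trdj1, Trdj2 and Trgj1 to Trgj4, were at 0 UMIs in the T cells of both libraries.

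The genes that accompany these receptors were counted from lists. Of 11 genes of the γδ lineage and interleukin-17 programme, 9 reached 20 CPM and 9 of these were called higher in TIL, with a median log2 ratio of 6.05, and 0 higher in IEL. They included Il17a, which encodes interleukin-17A, at 4382 CPM in TIL T cells and 11.3 CPM in IEL T cells. Of 10 intraepithelial and cytotoxic genes, 10 were measured and 9 were higher in IEL, with a median of -2.28, among them Cd8a at 64.2 CPM in TIL T cells and 580 CPM in IEL T cells. In the receptor complex list, 5 of 9 genes were measured. Fcer1g, an adaptor that γδ receptors can use in place of Cd247, was called higher in IEL (136 CPM in TIL T cells, 878 CPM in IEL T cells, log2 -2.69), and it is also a myeloid transcript, at 2077 CPM in TIL myeloid-like droplets. Cd247 was at 362 CPM in TIL T cells and 181 CPM in IEL T cells, just within 2-fold (log2 0.999), and Cd3g at 2228 CPM in TIL T cells and 1990 CPM in IEL T cells (log2 0.16). Of 5 butyrophilin-like and Skint ligand genes 0 were measured in T cells.

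Shares of cells with a UMI were compared after each cell was thinned to 2000 UMIs, which left 12071 TIL and 9042 IEL T cells, 150 TIL myeloid-like droplets and 86 of those with at most 1 Cd3 UMI. A Trdc UMI was found in 95.1% of TIL T cells (94.7 to 95.4) and 74.9% of IEL T cells (74.0 to 75.8). The share was 38.0% of the myeloid-like droplets (30.2 to 46.3) and 15.1% of those with at most 1 Cd3 UMI. Trdv4 was found in 33.1% of TIL T cells (32.3 to 34.0) and 0.863% of IEL T cells (0.682 to 1.08), and in 6.00% of the myeloid-like droplets (2.78 to 11.1) and none of those with at most 1 Cd3 UMI. The IEL share lay below that of all TIL myeloid-like droplets, which are of the other library. The IEL library has no background of its own, so its Trdv4 share cannot be read as expression from the share alone. Tcrg-C1 was found in 65.6% of TIL and 40.0% of IEL T cells. Tcrg-C2 was found in 19.8% of TIL and 32.8% of IEL T cells, and Tcrg-C4 in 23.2% of TIL and 31.7% of IEL T cells. The myeloid-like shares of these 3 genes were 20.0%, 4.0% and 5.33%, and 4.65%, 0% and 0% in those with at most 1 Cd3 UMI. For these 5 segments, and no other, the TIL share lay above the myeloid-like share with intervals apart.

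Tcrg-V6 was found in 2.33% of TIL T cells (2.07 to 2.61) and 0.0332% of IEL T cells at that depth. Tcrg-V1 was found in 0.762% of TIL and 1.86% of IEL T cells, Tcrg-V4 in 0.497% of TIL and 1.27% of IEL T cells, and Tcrg-V7 in 0.240% of TIL and 1.19% of IEL T cells. Trdv1 was found in 0.124% of TIL and 0.276% of IEL T cells. None of Tcrg-V1, Tcrg-V4 and Tcrg-V7 was seen in the 150 myeloid-like droplets, which allows a share of up to 2.0% by a count of 3. Tcrg-V6 was in 2 of the 150 (1.33%, 0.162 to 4.73) and Trdv1 in 1 (0.667%, 0.0169 to 3.66). The TIL shares of all these variable segments were therefore not distinguishable from background at this depth. Without thinning, Trdv4 was found in 61.7% of TIL and 2.52% of IEL T cells, and Tcrg-V6 in 7.61% of TIL and 0.132% of IEL T cells. Carriers held a median of 23 Trdc UMIs in TIL and 5 in IEL T cells.

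**Figure D1:**
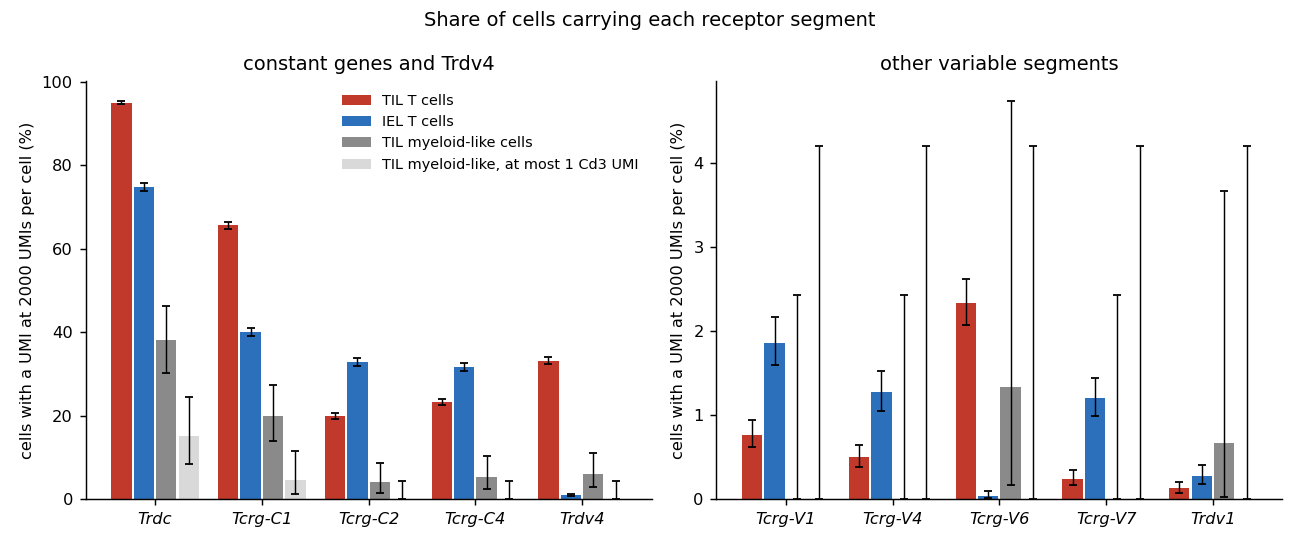
Share of cells with a UMI of each segment after thinning to 2000 UMIs per cell (%), in TIL T cells, IEL T cells, TIL myeloid-like droplets and those of them with at most 1 Cd3 UMI. Bars are shares and whiskers exact 95% binomial intervals, and the panels have different axes. Trdv4 stands at 33.1% of TIL and 0.863% of IEL T cells, and Tcrg-V7 at 0.240% of TIL and 1.19% of IEL T cells.

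The next comparison asked which lineage of T cell carried each segment. T cells were sorted into classes by 4 transcripts: Cd163l1 (the scavenger receptor Scart1) and 5830411N06Rik (Scart2), both known from interleukin-17 γδ T cells, Ccl5, a chemokine gene of cytotoxic T cells, and Ccr7, the lymph node homing receptor. A class needed at least 2 UMIs of its transcript and more than of each of the other 3. In TIL, 7106 T cells fell in the Cd163l1 class (58.5%), 354 in the 5830411N06Rik class (2.91%), 2190 in the Ccl5 class (18.0%) and 462 in the Ccr7 class (3.80%), and 2041 had none. In IEL, 9043 of 9100 fell in the Ccl5 class (99.4%), 23 in the Cd163l1 class, 2 in the 5830411N06Rik class and 4 in the Ccr7 class. Of the class transcripts, Ccl5 was at 316 CPM in the myeloid-like droplets and at 92.6 CPM in those with at most 1 Cd3 UMI.

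The TIL Cd163l1 class carried most of the Trdv4, Tcrg-C1 and Tcrg-V6 transcript. It was 58.5% of TIL T cells and held 71.8% of Trdv4, 74.4% of Tcrg-C1, 67.5% of Trdc and 80.1% of Tcrg-V6 UMIs, against 59.8% of Tcrg-C2 and 63.4% of Tcrg-C4 UMIs. Trdv4 was at 299 CPM in the class and 176 CPM in the other TIL T cells (log2 0.76, 0.72 to 0.80). Tcrg-C1 was at 903 CPM in the class and 469 CPM in the others (log2 0.94), and Tcrg-V6 at 15.0 CPM in the class (log2 1.42, 1.20 to 1.65). None of the 10 segments passed the 2-fold call in either direction here, where 0.751% of 5592 genes were called higher and 2.13% lower. With the level of all 167 myeloid-like droplets subtracted, Trdv4 (log2 1.06) and Tcrg-C1 (log2 1.27) were called higher in the class. The droplets with at most 1 Cd3 UMI had 0 Trdv4 UMIs, and their level alone was not subtracted. Tcrg-C1 (log2 1.07) was also called when T cells with a Trac UMI were left out. Trdv1 had 5 of its 51 TIL UMIs in the class, and Tcrg-V7 was at 0.764 CPM. The class nonetheless held 86 of 201 Tcrg-V4 carriers (42.8%), 117 of 293 Tcrg-V1 carriers (39.9%) and 39 of 99 Tcrg-V7 carriers (39.4%). These shares lay below the 58.5% of TIL T cells in the class. Of 1861 carriers of Trgv2, 1130 (60.7%) were in it.

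The TIL 5830411N06Rik class had the most calls of the 4 TIL classes, with less Trdc, Trdv4 and Tcrg-C1 transcript than the other TIL T cells. Trdc was at 985 CPM in the class and Trdv4 at 33.7 CPM, log2 ratios of -2.01 (-2.07 to -1.95) and -2.92 (-3.26 to -2.61) to the other TIL T cells, and Tcrg-C1 was at 337 CPM (log2 -1.14, just short of the call with a class from 10 UMIs). These 3 of the 10 segments were called lower and 0 higher, where 2.97% of 5584 genes were called lower and 1.29% higher. At 2000 UMIs Trdv4 was found in 3.67% of the class, within the interval of the myeloid-like droplets. Tcrg-C2 was at 199 CPM in the class (log2 0.55, and 1.18 and called with a class from 10 UMIs). Tcrg-V4 was at 7.67 CPM in the class, a log2 ratio of 1.78 (0.995 to 2.48) from 18 UMIs in 17 of 354 cells (4.80%), and 1.65% of all TIL T cells carried it. Of the segments outside the 10, Trdv5 was at 11.9 CPM in the class, a log2 ratio of 4.10 (3.40 to 4.76), and 24 of the 83 TIL cells with a Trdv5 UMI (28.9%) were in this class of 2.91% of the cells. The interleukin-17 transcript Il17a was at 3240 CPM in the class and 5387 CPM in the Cd163l1 class.

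In the TIL Ccl5 class, Trdv4 was called lower than in the other TIL T cells, and Tcrg-V7, Tcrg-V1 and Trdv1 were at higher levels. Trdv4 was at 130 CPM in the class and 278 CPM in the others (log2 -1.10, -1.16 to -1.04), the 1 segment called of 10, where 2.81% of 5703 genes were called lower and 3.54% higher. Without cells that had a Trac UMI its log2 ratio was -0.95 and no longer called, and with classes free of the other 3 markers Trdc was called lower as well (log2 -1.55). Tcrg-V7 was at 3.28 CPM in the class and 0.676 CPM in the others, a log2 ratio of 2.28 (1.71 to 2.86), and 52 of 99 Tcrg-V7 carriers (52.5%) were in it. Tcrg-V1 was at 8.23 CPM in the class (log2 1.73, 1.41 to 2.06), with 126 of 293 carriers (43.0%). Trdv1 was at 2.01 CPM in the class (log2 3.22, 2.33 to 4.17), with 30 of 43 carriers (69.8%). All 3 stayed under 20 CPM and outside the call.

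In the TIL Ccr7 class, Tcrg-C1 was called lower, at 247 CPM in the class and 750 CPM in the others (log2 -1.60, -1.70 to -1.51), the 1 segment of 10. The same comparison called 2.61% of 5675 genes lower and 2.03% higher. Trdc was at 3144 CPM and Trdv4 at 168 CPM in the class. With classes free of the other 3 markers Trdv4 was called lower too (log2 -1.48), and with a class from 10 UMIs Tcrg-C4 was (log2 -1.08). Of 80 TIL cells with Trdv2-2, 18 (22.5%) were in this class of 3.80% of the cells.

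**Figure D2:**
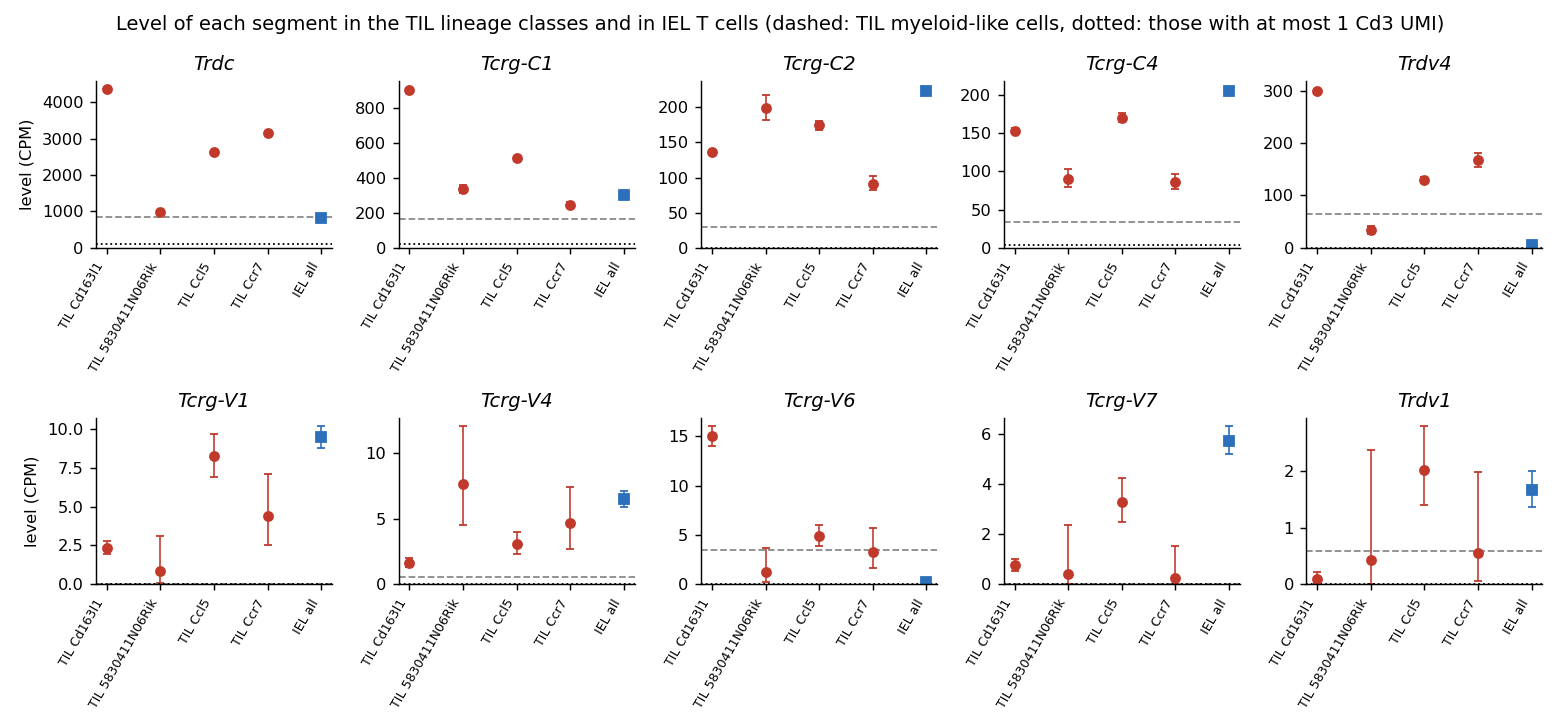
Level of each segment (CPM) in the 4 TIL lineage classes (red circles) and in all IEL T cells (blue squares). Whiskers are exact 95% intervals, the dashed line is the level in the 167 TIL myeloid-like droplets and the dotted line that in the 98 of them with at most 1 Cd3 UMI. Trdv4 and Tcrg-V6 peak in the Cd163l1 class at 299 and 15.0 CPM, Tcrg-V4 in the 5830411N06Rik class at 7.67 CPM, and Tcrg-V1 and Tcrg-V7 in the Ccl5 class, among the TIL classes.

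Levels of several segments in the TIL Ccl5 class differed with the number of Ccl5 UMIs, and the cause was not tested. In cells with 2 to 4 Ccl5 UMIs Trdv4 was at 223 CPM, with 5 to 9 at 222 CPM, with 10 to 49 at 143 CPM and with 50 or more at 64.5 CPM (58.7 to 70.9). The last value, from 878 cells, was close to the 63.9 CPM of all myeloid-like droplets, while those with at most 1 Cd3 UMI had 0 Trdv4 UMIs. Trdc stood at 3907, 3632, 2926 and 1734 CPM over the same 4 ranges. Tcrg-V7 was higher in the last range, at 0.521, 1.01, 1.51 and 6.43 CPM from 1, 2, 10 and 44 UMIs. Only the last interval (4.67 to 8.63) stood apart from the others, and the last value was as high as the 5.76 CPM of IEL T cells. Tcrg-V1 stood at 3.13, 7.58, 9.04 and 9.05 CPM, from 6, 15, 60 and 62 UMIs, against 9.46 CPM in IEL T cells. Tcrg-C2 was at 207 CPM in the cells with 50 or more Ccl5 UMIs and Tcrg-C4 at 170 CPM, beside 223 and 205 CPM in IEL T cells. Trac, the αβ constant gene, was at 206 CPM in these cells and 325 CPM in IEL T cells.

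**Figure D3:**
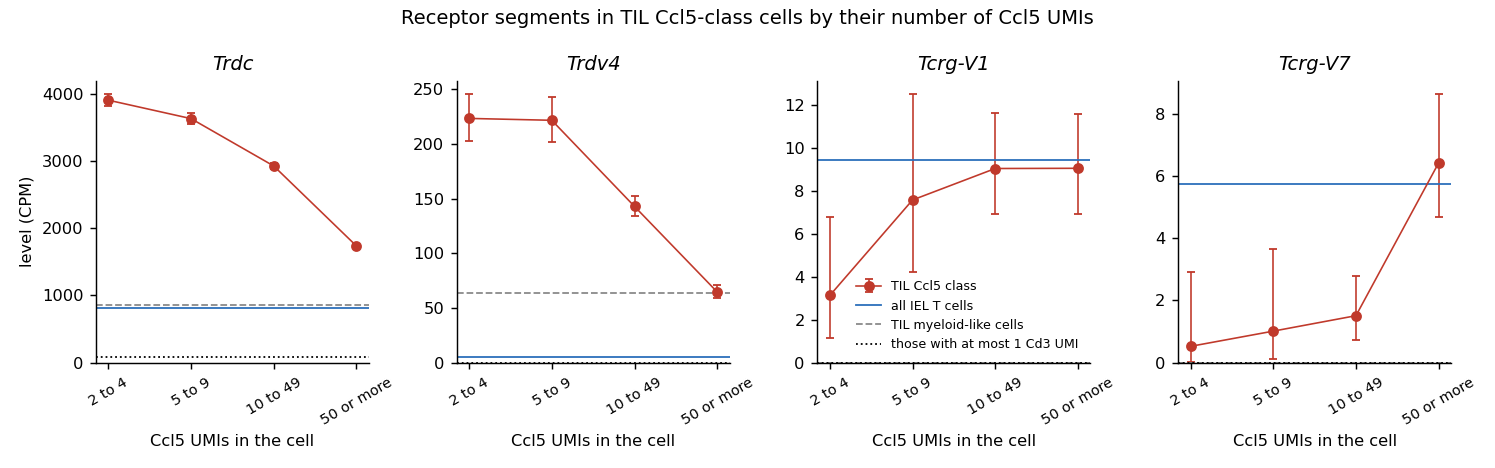
Level (CPM) of Trdc, Trdv4, Tcrg-V1 and Tcrg-V7 in TIL Ccl5-class cells by their number of Ccl5 UMIs (red, whiskers exact 95% intervals). The blue line is the level in all IEL T cells, the dashed line that in TIL myeloid-like droplets and the dotted line that in those with at most 1 Cd3 UMI. With 50 or more Ccl5 UMIs Trdv4 is at 64.5 CPM and Tcrg-V7 at 6.43 CPM.

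The 23 IEL cells of the Cd163l1 class had more Trdv4, Trdc and Tcrg-C1 transcript than the other IEL T cells. Trdv4 was at 211 CPM in them and 4.38 CPM in the other IEL T cells, a log2 ratio of 5.59 (5.02 to 6.12), with UMIs in 15 of the 23. Trdc was at 2257 CPM in them (log2 1.47) and Tcrg-C1 at 805 CPM (log2 1.43). Tcrg-V6 was at 26.4 CPM from 4 UMIs in 3 cells (log2 7.65, 5.50 to 9.49). Trdv4 and Tcrg-V6 met the 20 CPM minimum only through these 23 cells, Tcrg-V6 by 4 UMIs, so their calls are no separate support. With both included, 4 of the 10 segments were called higher, where 10.3% of 6397 genes were. Tcrg-C4, at 99.0 CPM from 15 UMIs, was called lower (log2 -1.05, and -0.94 with a class from 1 UMI), where 6.14% of the genes were. Il17a was at 1201 CPM in the 23 cells, and Trac had 5 UMIs in them. Set against each other within the Cd163l1 class, TIL and IEL cells had log2 ratios of 0.50 for Trdv4 (0.00 to 1.05), 0.16 for Tcrg-C1 (-0.09 to 0.43) and 0.95 for Trdc (0.80 to 1.11), and 0 of 10 segments were called, where 4.96% of 6034 genes were called higher in TIL and 9.65% higher in IEL. The 23 cells limit this comparison, as the intervals show.

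Most IEL Trdv4 transcript was nonetheless outside that class: 281 of 332 UMIs (84.6%) were in the 9043 Ccl5-class cells, at 4.12 CPM, and 32 (9.64%) in the 23 cells. Trdv4 and Trdc were the 2 of 10 segments called lower in the IEL Ccl5 class than in the remaining 57 IEL T cells (log2 -5.16 and -1.12). Of 6487 genes, 8.49% were called lower and 6.72% higher there. The 57 cells include the 23 of the Cd163l1 class, so these calls are not separate from those above. The call of Trdc was lost with a class from 3 UMIs (log2 -0.81) and with classes free of the other 3 markers (log2 -0.55). In that class 374 of the 375 IEL Tcrg-V7 carriers, 415 of the 416 Tcrg-V4 carriers, 592 of the 595 Tcrg-V1 carriers and 98 of the 99 Trdv1 carriers were found. Within the Ccl5 class, Trdc (log2 1.70, 1.68 to 1.72) and Trdv4 (log2 4.98, 4.80 to 5.16) were called higher in TIL and 0 segments higher in IEL, where 6.53% of 6190 genes were called higher in TIL and 8.01% higher in IEL. Trdv4 met the 20 CPM minimum there only through TIL, so the direction of its call was fixed. Tcrg-V1 did not differ there beyond its interval, at 8.23 CPM in TIL Ccl5-class cells and 9.46 CPM in those of IEL (log2 -0.20, -0.47 to 0.06). Tcrg-V7 was at 3.28 CPM in TIL Ccl5-class cells and 5.77 CPM in those of IEL (log2 -0.82).

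The third question was which variable γ and δ segments were found in the same cell. In TIL, Tcrg-V6 went with Trdv4: of 925 cells with a Tcrg-V6 UMI, 761 (82.3%, 79.7 to 84.7) also had Trdv4, against 59.97% (59.1 to 60.9) of the other TIL T cells. Since Trdv4 was so widespread, the share could not reach the 2-fold required for a call. In all, 0 pairs of γ and δ segments were called in TIL. Trdv1 was in 7 of 293 Tcrg-V1 carriers (2.39%, 0.966 to 4.86) and 0.304% (0.213 to 0.420) of the others, short of the 10 cells required. At 2000 UMIs per cell it was in 0 of 92 Tcrg-V1 carriers. Tcrg-V5 carriers had Trdv4 in 84.0% of 163 cells. Trgv2 carriers had it in 65.8% of 1861 cells against 60.9% of the others, and 18 of 24 Tcrg-V3 carriers had it. It was less frequent in carriers of the other 3 segments, at 51.7% of 201 Tcrg-V4 carriers, 49.8% of 293 Tcrg-V1 carriers and 41.4% of 99 Tcrg-V7 carriers, where the cells without each segment stood between 61.8% and 62.0%. Carriers of Tcrg-V6 had a median of 7397 UMIs and the other TIL T cells 6403 UMIs, and those of Tcrg-V7 had 5982 UMIs, so the pairs were also compared at equal depth. At 2000 UMIs per cell, Trdv4 was in 48.4% of the 281 Tcrg-V6 carriers and in 32.8% of the others. It was in 19.6% of 92 Tcrg-V1 carriers and 21.7% of 60 Tcrg-V4 carriers, against 33.2% of the others. The lower share of Tcrg-V7 carriers was not seen at that depth, with 10 of 29 (34.5%) against 33.1% of the others, nor was the higher share of Trgv2 carriers (32.9% against 33.1%).

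The share of carriers with Trdv4 was also taken within each lineage class. Within the Cd163l1 class Trdv4 was in 82.3% of Tcrg-V6, 87.2% of Tcrg-V1, 76.9% of Tcrg-V7 and 76.7% of Tcrg-V4 carriers, beside 75.6% of the whole class. Within the Ccl5 class it was in 64 of 76 Tcrg-V6 carriers (84.2%) but in 7 of 52 Tcrg-V7 carriers (13.5%), 30 of 126 Tcrg-V1 carriers (23.8%) and 16 of 51 Tcrg-V4 carriers (31.4%), where 30.5% of the class had it. In the 5830411N06Rik class 1 of 17 Tcrg-V4 carriers (5.88%) had Trdv4, and 0 of 17 had Trdv5.

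In IEL, where Trdv4 was rare, the same pair stood out in few cells. Of 12 cells with a Tcrg-V6 UMI, 9 (75.0%, 42.8 to 94.5) had Trdv4, against 2.42% (2.11 to 2.76) of the other IEL T cells. The 9 cells fell just short of the 10 required for a call. They lay in the Cd163l1 class (3 of 3 Tcrg-V6 carriers), the Ccl5 class (5 of 8) and outside any class (1 of 1). The pair called in IEL was Tcrg-V4 with Trdv1, in 11 of 416 carriers (2.64%) against 1.01% of the others. It was not called when the 5% deepest cells were left out or at 2000 UMIs per cell. Tcrg-V7 carriers had Trdv4 in 18 of 375 IEL cells (4.80%).

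**Figure D4:**
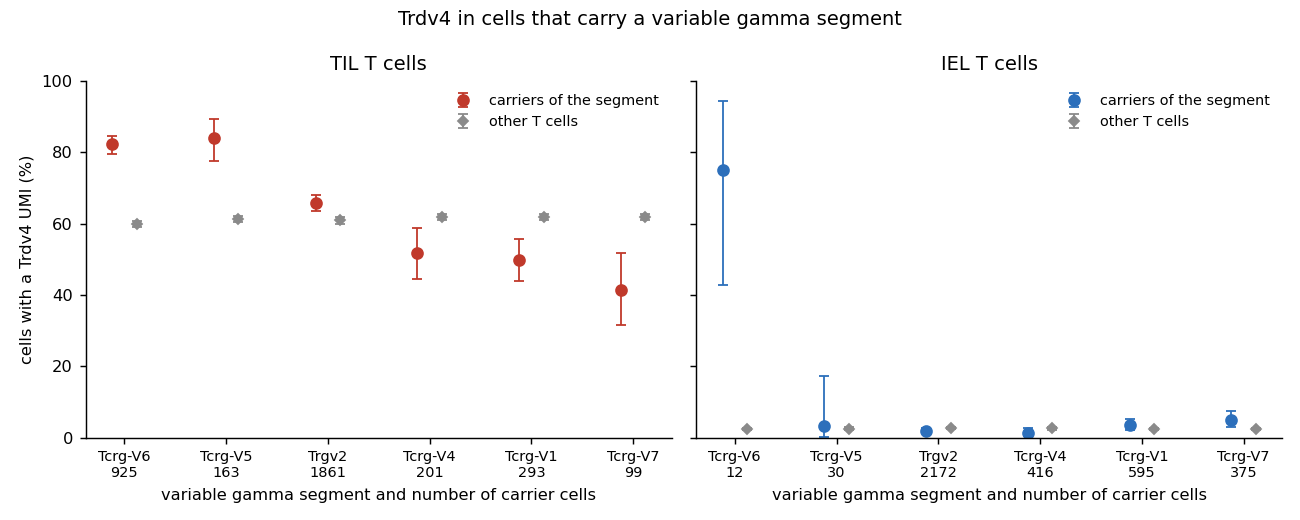
Share of cells with a Trdv4 UMI (%) among carriers of each variable γ segment (coloured circles) and among all other T cells (grey diamonds), in TIL on the left and IEL on the right. Whiskers are exact 95% intervals and the number under each segment counts its carriers. Tcrg-V6 carriers stand at 82.3% in TIL and 75.0% in IEL.

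The last question was whether a variable γ segment went with the constant gene of its own cluster. It did for Trgv2 and Tcrg-V1 in TIL, in levels that were higher in carriers. Trgv2 carriers had Tcrg-C2 at 289 CPM and the other TIL T cells at 104 CPM, a log2 ratio of 1.48 (1.43 to 1.53), called, where 0.109% of 5512 genes were called higher in carriers. Tcrg-C2 was found in 75.8% of 1861 Trgv2 carriers and 35.8% of the other TIL T cells, the 1 pair of γ segments called in TIL. Tcrg-V1 carriers had Tcrg-C4 at 290 CPM and the others at 141 CPM, a log2 ratio of 1.03 (0.93 to 1.14), also called, where 1.4% of 5631 genes were. Tcrg-C2, of another cluster, was also higher, at 218 CPM in carriers and 135 CPM in the others (log2 0.69, 0.57 to 0.81). Tcrg-C1 was at 578 CPM in carriers and 734 CPM in the others (log2 -0.34). Tcrg-V6 carriers had Tcrg-C1 at 1030 CPM and the others at 700 CPM (log2 0.56, 0.52 to 0.59), with a Tcrg-C1 UMI in 913 of 925 carriers (98.7%). Tcrg-V7 carriers had Tcrg-C1 at 943 CPM (log2 0.37), about as far up as Tcrg-C2 (log2 0.46) and Tcrg-C4 (log2 0.39) in the same 99 cells. For Tcrg-V4, which lies in the Tcrg-C1 cluster, Tcrg-C1 did not differ beyond its interval (log2 0.00, -0.08 to 0.08), while Tcrg-C2 (log2 0.71) and Tcrg-C4 (log2 0.67) were somewhat higher in carriers.

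In IEL the differences were smaller, none reaching 2-fold for Tcrg-V7, Tcrg-V4, Trgv2 and Tcrg-V1, and 0 pairs of γ segments were called. In the 12 IEL Tcrg-V6 carriers Tcrg-C1 was higher (log2 0.60, 0.18 to 0.98) and Tcrg-C2 lower, on 8 UMIs (log2 -1.73, -2.94 to -0.75). Unlike for Tcrg-V7 and Tcrg-V4 in TIL, the constant gene of the same cluster had the highest ratio of the 3 for each of these 4 segments: Tcrg-C1 in Tcrg-V7 carriers (log2 0.52, with 0.17 for Tcrg-C2 and 0.00 for Tcrg-C4) and in Tcrg-V4 carriers (0.21, with 0.12 and 0.02), Tcrg-C2 in Trgv2 carriers (0.54) and Tcrg-C4 in Tcrg-V1 carriers (0.38, with -0.03 for Tcrg-C1 and -0.01 for Tcrg-C2). In the 30 IEL carriers of Tcrg-V5, which lies before Tcrg-C1, Tcrg-C2 had the highest ratio instead (0.38, with 0.18 for Tcrg-C1). Most cells thus carried constant genes beyond that of the segment seen. All 3 of Tcrg-C1, Tcrg-C2 and Tcrg-C4 occurred together in 23.2% of TIL and 39.7% of IEL T cells, and Tcrg-C1 alone in 26.5% of TIL and 7.32% of IEL T cells. At least 2 variable γ segments were found in 13.0% of the 3135 TIL and 14.4% of the 3153 IEL cells that had any, and at least 2 of the 4 variable δ segments in 0.614% of 7653 TIL and 5.19% of 1040 IEL cells. Doublets were not called. Their part in these shares, and the parts of free RNA and of the letters shared by Tcrg-C1 and Tcrg-C2, were not tested.

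**Figure D5:**
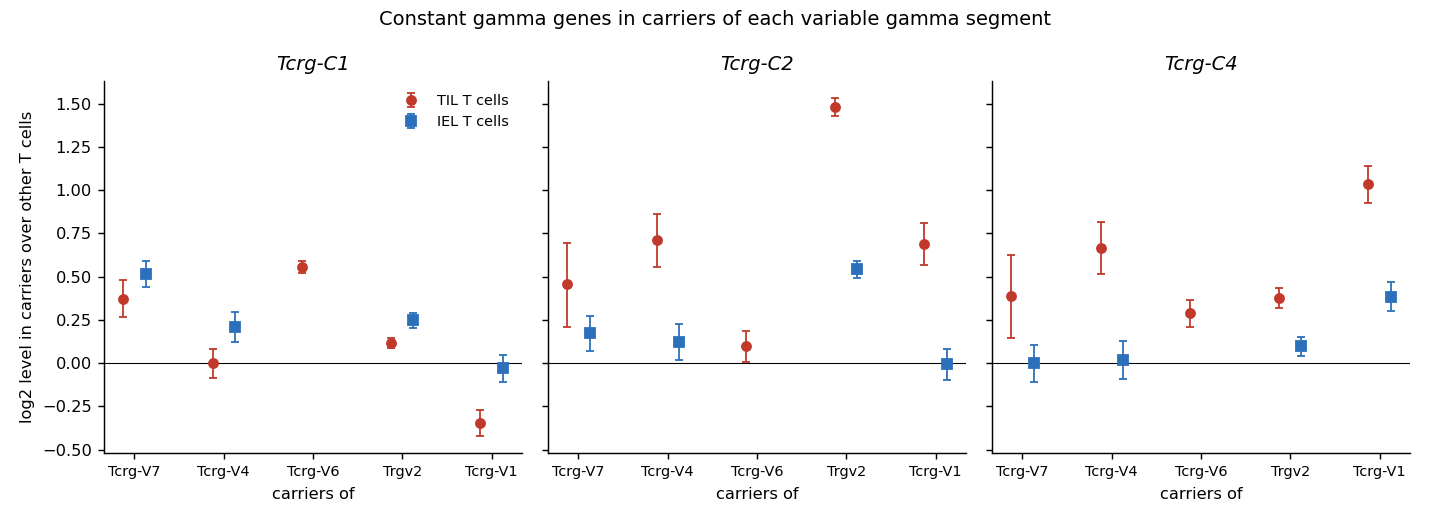
Log2 ratio of the level of Tcrg-C1, Tcrg-C2 and Tcrg-C4 in carriers of each variable γ segment over the other T cells of the library, for TIL (red circles) and IEL (blue squares), with exact 95% intervals. IEL Tcrg-V6 carriers (12 cells) are left out. The highest points are Tcrg-C2 in TIL Trgv2 carriers (1.48) and Tcrg-C4 in TIL Tcrg-V1 carriers (1.03).

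Transcripts of the αβ constant gene Trac were common beside those of Trdc. The 2 occurred together in 37.6% of TIL and 75.9% of IEL T cells, Trdc without Trac in 61.3% of TIL and in 1911 of the 9100 IEL T cells, and Trac without Trdc in 0.436% of TIL and 2.01% of IEL T cells. At 2000 UMIs per cell both were seen in 14.7% of TIL and 32.7% of IEL T cells, Trdc without Trac in 80.3% of TIL and 42.1% of IEL T cells, and Trac without Trdc in 0.936% of TIL and 11.1% of IEL T cells. A Trac UMI was then found in 5.33% of the myeloid-like droplets and 1.16% of those with at most 1 Cd3 UMI. At full depth it was found in 15.6% of the myeloid-like droplets. The level of Trdc was nearly as high in cells with Trac as in those without: 3874 and 3929 CPM in TIL, and 826 and 880 CPM in IEL T cells. Tcrg-C1 was at 314 CPM in IEL cells with both and 250 CPM in IEL cells with Trdc alone. Within TIL, Trdv4 was at 242 CPM in cells with both and 259 CPM in cells with Trdc alone.

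The genes whose presence went most closely with each segment were ranked at 2000 UMIs per cell by the difference in share between carriers and the other T cells of the library, for segments with at least 200 carriers. In TIL, Trdc went with Cd163l1 (58.7% of 11475 carriers, 15.1% of the 596 others), Cxcr6 and Tmem176a, and against Fyb and Gimap6. Trdv4 went with S100a6, Hif1a and Tmem176a, each 17.3 or 17.4 points more frequent in its 4000 carriers, and against Cd7 and Nkg7. Tcrg-C1 went with Cd163l1 (27.2 points), Tmem176b and Tmem176a and against Fyb and Plac8. Tcrg-V6 went with Cd163l1 (80.1% of 281 carriers, 56.0% of the others), Icos and Ece1 and against Nkg7 and Gimap6. Tcrg-C2 went with Cd7, Nkg7 and Ccl5, and Tcrg-C4 with AW112010, Gzmb and Ckb, both against Smox and Stx11, by 11.3 points at most. In IEL the same ranking gave differences of 6.85 points at most for Trdc, Tcrg-C1, Tcrg-C2 and Tcrg-C4, the 4 segments with enough carriers. These are descriptions over cells of 1 library, which share its depth and free RNA.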

How the data were processed

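Each library was deposited as a sparse matrix of UMI counts, whole numbers for every gene in every barcode, which the authors did not normalize, per the file headers. Cell Ranger 6.1.1 and the mm10 build are named in the submitters' processing notes, and the rule that separated cells from empty droplets is not given in the sources used here. The TIL library held 13245 barcodes with 94953893 UMIs and the IEL library 9398 barcodes with 69414155 UMIs.

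Barcodes with at least 500 genes, 1000 UMIs and at most 10% mitochondrial UMIs were kept, 12407 in TIL and 9128 in IEL. Myeloid-like droplets had at least 1% of UMIs from 15 myeloid markers, and 61 TIL cells lay between 0.5 and 2%. UMIs were summed over T cells and given as CPM, with exact ratio intervals conditional on the summed counts and Clopper-Pearson share intervals. A pair of segments was called when at least 10 cells held both, the share was at least 2-fold that of the other cells and the intervals did not overlap. With 1 library a group, p-values were not computed. The ratio and its call were tested on simulated data. No doublets were removed. Segment positions and sequences are from GENCODE vM21 (GRCm38, the assembly of mm10). NumPy 2.4.6, SciPy 1.17.1 and pandas 2.3.3 were used. Named genes were the 10 segments, the other segment rows, the lists given and, for each segment with at least 200 carriers, the 3 genes furthest up and the 2 furthest down. The segments and lists were chosen with earlier results of these data known.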

Additional observations from a re-analysis of the deposited data

Results flagged for a closer look

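Trdc transcript was also found in the barcodes that the cell filter left out and that enter no comparison, at 872 CPM in 838 TIL barcodes and 195 CPM in 270 IEL barcodes, above the level that a count of 0 allows. In the same barcodes Trdv4 had 208 UMIs in TIL and 0 in IEL.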

How the results depend on the processing

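Each value was recomputed under 20 planned settings and 2 chosen after seeing the data (a class from 10 UMIs, and leaving out barcodes found in both libraries). No paired analysis was possible because each group had 1 library, and for the same reason no replicate could be left out. None of the log2 ratios of TIL over IEL T cells changed sign: that of Trdc ran from 1.89 to 2.34 and that of Trdv4 from 5.13 to 5.83. With the level of all TIL myeloid-like droplets subtracted, Tcrg-C1 (log2 0.92) was not called and Tcrg-C2 (log2 -1.04) was. Under that setting 183 genes were higher in TIL and 4824 in IEL T cells. It also gave 2 segments higher in the TIL Cd163l1 class and 2 lower in the Ccr7 class. The level of the droplets with at most 1 Cd3 UMI alone was not subtracted. From 5 CPM, Tcrg-V1 (-1.41), Tcrg-V4 (-1.45), Tcrg-V6 (5.90) and Tcrg-V7 (-2.30) were called, with 1060 genes higher in TIL and 1659 in IEL, and with no minimum Trdv1 (-1.57) as well, with 2755 genes higher in TIL and 3204 in IEL. The segments called from 5 CPM met that minimum only in the library where they were higher. Among cells with no Trac UMI, 1 segment was called higher in the TIL Cd163l1 class, 0 lower in the TIL Ccl5 class and 4 lower in the IEL Ccl5 class. With no filter on cells, 1 segment was higher in the IEL Ccl5 class. With a class from 3 UMIs 1 segment was lower in the IEL Ccl5 class. With classes free of the other 3 markers, 2 were lower in the TIL Ccl5 class, 2 in the TIL Ccr7 class and 1 in the IEL Ccl5 class. From 10 UMIs, 1 was higher in the TIL 5830411N06Rik class, 2 lower in the Ccr7 class and 1 lower in the IEL Ccl5 class. The pairs of variable γ and δ segments called in IEL numbered 0 with no Trac UMI, without the deepest 5% of cells, from 2 UMIs and at 2000 UMIs, and 2 without barcodes found in both libraries. From 2 UMIs, 3 pairs of variable and constant γ segments were called in TIL. The causes were not tested. All other recomputed answers to the comparisons, 264 in number, kept their side of the call or, for counts, stayed within 1.5 times. Depth limits the variable segments most: Tcrg-V7 rested on 107 UMIs in TIL and 395 in IEL T cells, and Tcrg-V6 on 13 in IEL.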
